A study of Arabidopsis thaliana with 6 samples.

Results

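The comparison described here set the wounded rosette leaves of Arabidopsis thaliana against undamaged leaves of wounded plants. The labels do not say whether both kinds of leaf came from the same plants. It drew on 4 of the 6 arrays of the study, chosen by their labels: 2 arrays of local leaves and 2 of systemic leaves, with the 2 control arrays used to place each level. Local leaves came from 5-week-old wild-type plants (ecotype spelled Colombia in the labels) in which 3 rosette leaves had been clamped across the midvein with tweezers, and they were taken 10 min later. Systemic leaves were undamaged leaves of wounded plants at the same 10 min, and control leaves came from plants that were not wounded. All plants grew at 21 °C with 10 h of light and 14 h of dark, and each array received RNA of leaves pooled from 3 plants. The labels call the 2 arrays of a group biological replicates, and p-values measure the spread between such pools. Levels are log2 values after robust multi-array averaging (RMA), 1 per probe set, so a difference of 1 is 2-fold.

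Damage to a leaf opens calcium channels in its own cells and also starts an electrical and calcium wave that travels through the veins to other leaves, where jasmonate, a lipid hormone of defence, is made within minutes. Cells next to the damage additionally sense wall fragments, ATP and other contents of broken cells, which a distant leaf does not meet directly. Genes that respond within minutes are mostly transcription factors, calcium sensors, ubiquitin ligases and wall-modifying enzymes. Setting the local leaf against the systemic leaf asks which of these moved with damage in the leaf itself and which moved as much at a distance.

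The 2 arrays of a group correlated over all probe sets with r = 0.997 for local, 0.996 for systemic and 0.995 for control leaves, and their number limits the precision. The mesophyll markers measured, RCA and LHCB4.1, lay between 14.2 and 14.6 on all 6 arrays, 3 guard cell markers were measured, none of which was called between the leaves, and no xylem marker of the list was measured. FDH, the sole epidermal marker measured of 6 listed, was 0.85 higher in local than in systemic leaves (adjusted p = 0.038 by limma). Its differences from control were -0.18 in local and -1.03 in systemic leaves. SWEET11, a phloem sucrose transporter gene, differed by 0.48 (adjusted p = 0.12) and the guard cell gene FMA by -0.45 (adjusted p = 0.15). In such bulk samples, a shift in the share of a cell type and a change of RNA per cell cannot be told apart. For ubiquitin, the gap between 3' and 5' array controls, which reads RNA quality, was 0.408 and 0.405 in local leaves and 0.605 and 0.602 in systemic leaves. The gaps of actin and GAPDH overlapped between the groups. The part of these differences in the results was not tested.

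Large differences between wounded and distant leaves were more often toward the wounded leaf. Of 22746 probe sets, 1084 were higher in local than in systemic leaves and 1122 were lower at an adjusted p under 0.05 (limma, Benjamini-Hochberg), which is 4.77% and 4.93% of those tested. At a difference of at least 2-fold, 368 were higher (1.62%) and 158 lower (0.695%). Among probe sets with 1 listed gene, 8.61% were called either way. Set against control, local leaves had 9.92% of all probe sets higher and 13.7% lower, and systemic leaves had 4.73% higher and 3.67% lower. At 2-fold these shares were 3.29% higher and 1.74% lower for local leaves and 1.36% higher and 0.615% lower for systemic leaves. The local minus systemic differences of at least 4-fold numbered 96 positive and 13 negative ones, and those of at least 16-fold 12 and 2. Without a further normalization 49.1% of the calls were higher, and after cyclic loess 60.5% were. The local and systemic arrays did not overlap in 53.4% of all probe sets, and the local and control arrays in 59.3%.

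The replicate arrays were not equally strong in these genes. Among the 368 probe sets higher by at least 2-fold, 277 were higher on systemic replicate 1 than on systemic replicate 2, and the median gap was 0.31 against -0.01 over all probe sets. Among the 158 lower ones, local replicate 1 lay below local replicate 2 in 130, with a median gap of -0.37. Without local replicate 1 the counts at 2-fold were 255 higher and 92 lower, without local replicate 2 they were 375 and 240, and without systemic replicate 2 they were 309 and 126. Counts at any size fell further, to 358 higher (1.57%) and 200 lower (0.879%) without local replicate 1.

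**Figure D1:**
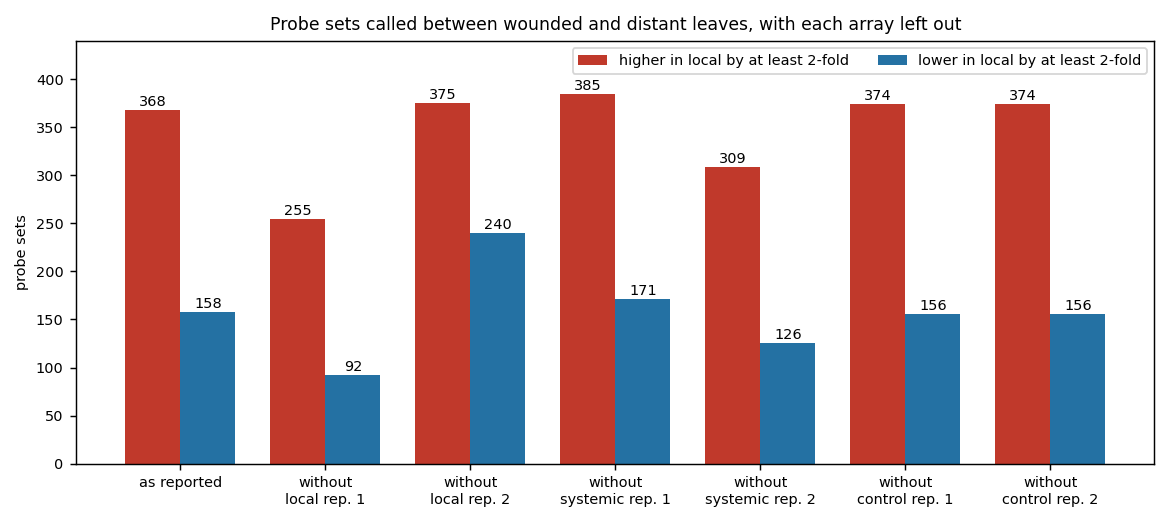
Number of probe sets (y axis) called higher (red) or lower (blue) in local than in systemic leaves by at least 2-fold, with all arrays and with each of the 6 arrays left out in turn (x axis). The higher count lies between 255 and 385 and exceeds the lower count, 92 to 240, in each case.

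To place the genes, each probe set was set against control leaves as well, and 8 descriptive classes were formed from the 3 differences and their 95% intervals. A rise of the wounded leaf was at least 2-fold over both systemic and control leaves, with the systemic difference from control not called and its interval under 2-fold. A graded rise was at least 2-fold in each of the 3 comparisons. A rise as strong at a distance was at least 2-fold over control in both leaves, with the interval of local minus systemic wholly inside 2-fold either way. A rise stronger at a distance was at least 2-fold over both control and local leaves in the systemic leaf. The counts were 115 probe sets for the rise of the wounded leaf, 124 for the graded rise, 94 for the rise as strong at a distance and 5 for the rise stronger at a distance. The matching falls held 67, 13, 66 and 17. Leaving out 1 array moved several of these counts by over 1.5 times. Without local replicate 1 the graded rise held 71, the rise stronger at a distance 2, the fall of the wounded leaf 40 and the fall stronger at a distance 9. The rise stronger at a distance held 13 without systemic replicate 2, the fall of the wounded leaf 115 without local replicate 2, the graded fall 8 without systemic replicate 1 and the fall as strong 147 without control replicate 2. Some genes described below met no class rule, because their systemic difference from control was called below 2-fold or its interval reached 2-fold: AT1G19210, CML38, PUB19, PUB22, XTH18 and AT4G29020 are among them. Local and systemic differences from control share the control arrays, so the classes describe levels and were not tested as groups.

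**Figure D2:**
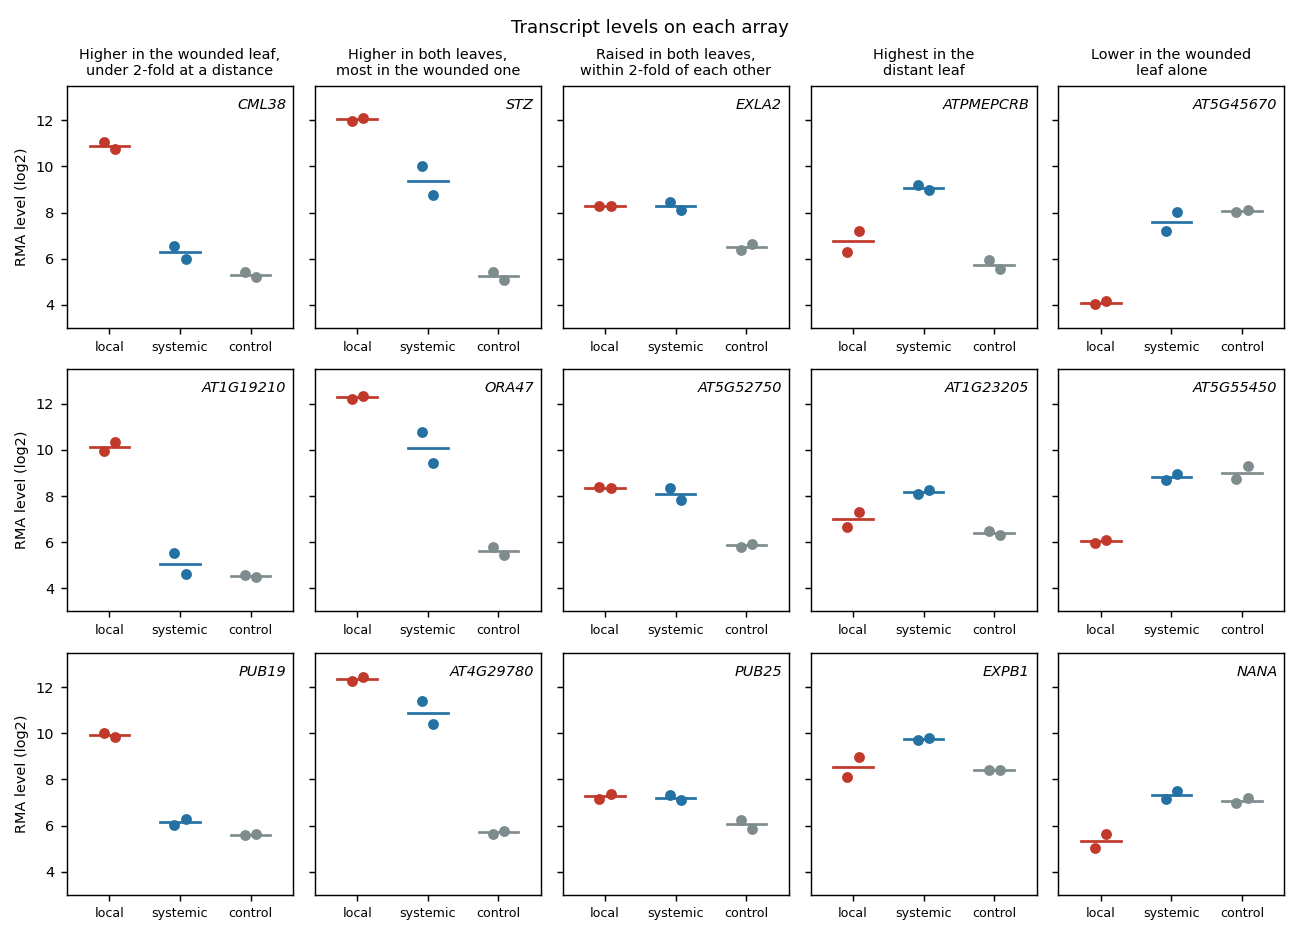
RMA level (log2, y axis) of 15 genes on each array, with the local, systemic and control arrays from left to right in every panel (points, 1 per array; lines, group means). From left to right, the first column holds genes at 9.84 to 11.07 in local and at most 6.56 in systemic leaves, which met no class rule. Then follow genes at 8.74 or more in both leaves of wounded plants and genes raised in both to within 2-fold of each other. The last columns hold genes highest in the systemic leaf and genes low in the local leaf.

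Calcium sensor genes were higher in the wounded leaf in 11 of 29 cases, led by 3 calmodulin-like genes. CML38 (AT1G76650), a calmodulin-like calcium-binding protein, was at 11.07 and 10.74 on the local arrays, 6.56 and 6.00 on the systemic arrays and 5.42 and 5.20 on the control arrays. It was 24.6-fold higher in local than in systemic leaves, or by 4.62 ± 0.19 on the log2 scale (adjusted p = 2.5e-05 by limma, here and below with the SE after ±). Its systemic level, 0.97 above control, was called (adjusted p = 0.021), but the call failed when control replicate 1, control replicate 2 or systemic replicate 1 was left out (adjusted p up to 0.10). CML37 (AT5G42380), a close relative, was at 7.23 and 7.30 in local, 3.92 and 3.79 in systemic and 3.88 and 3.81 in control leaves. The systemic and control levels were under the lower quartile of the array, too dim for a small change to show, and the systemic minus control difference was 0.01 with an interval of -0.21 to 0.23. AT3G01830, another calmodulin-like gene, was at 9.24 and 8.97 in local leaves. Its systemic arrays stood far apart at 5.91 and 4.07, over 3.63 and 3.57 in control leaves, and local minus systemic was 4.12 ± 0.48 (adjusted p = 0.0025).

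Of the 29 measured genes of the calmodulin and EF-hand list, 11 were higher in local than in systemic leaves and 1, AT1G12310, was lower, so that 41.4% were called against 9.7% of all probe sets. The lower call was absent after cyclic loess. The median of the list was 0.08, against -0.03 over all probe sets, and 17 members were not called. AT4G27280 was high in both leaves of wounded plants, at 12.55 and 12.70 in local and 11.18 and 10.19 in systemic leaves against 8.08 and 7.52 in control leaves. Its difference between the 2 leaves was 1.94 (adjusted p = 0.0081), and the call was lost without local replicate 1 (adjusted p = 0.056). AT1G18210 was 0.97 higher in local leaves (adjusted p = 0.0027). AT1G21550 was 1.39 higher (adjusted p = 0.0058, or 0.058 without local replicate 1). Without local replicate 1 the list had 4 higher members and none lower, when 1.57% of all probe sets were higher.

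Ubiquitin ligases of the plant U-box family divided by member. These enzymes tag proteins for degradation, and PUB22, PUB23 and PUB24 are known to dampen pattern-triggered immunity. PUB19 (AT1G60190), known from drought and abscisic acid responses, was at 10.03 and 9.84 on the local arrays, 6.02 and 6.28 on the systemic and 5.59 and 5.61 on the control arrays. It was 13.8-fold higher in local than in systemic leaves (difference 3.79 ± 0.12, adjusted p = 6e-06). Its systemic level, 0.55 above control, passed (adjusted p = 0.028), but the call failed when control replicate 1, control replicate 2 or systemic replicate 2 was left out (adjusted p up to 0.14). PUB23 (AT2G35930) was at 10.06 and 10.33 in local, 6.81 and 6.17 in systemic and 5.39 and 5.43 in control leaves, a local minus systemic difference of 3.71 (adjusted p = 7.9e-05), and its systemic rise of 1.08 over control was lost without either control array (up to 0.062). PUB22 (AT3G52450) and AT1G24330 differed by 2.86 and 2.51 (adjusted p = 0.00026 and 2.6e-05), and their systemic levels were not called against control. Each of these 4 kept its call without any single array.

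PUB24, PUB25 and PUB26 showed the other pattern. PUB24 and PUB25 were picked after their values had been seen. PUB25 (AT3G19380) was at 7.15 and 7.38 in local, 7.31 and 7.10 in systemic and 6.25 and 5.84 in control leaves, so that the local and systemic arrays overlapped and both groups lay above control. The interval of local minus systemic was -0.31 to 0.42. For PUB24 (AT3G11840) the interval was -0.53 to 0.19 and for PUB26 (AT1G49780) -0.08 to 0.66. Against control, PUB24 was higher by 0.76 in local and 0.93 in systemic leaves and PUB26 by 1.24 and 0.95, given in the order local and systemic. The calls of PUB24 were lost without control replicate 1, the systemic one also without systemic replicate 1 (adjusted p up to 0.056 for local and 0.074 for systemic leaves), and the systemic call of PUB26 was lost without control replicate 2 or systemic replicate 1 (up to 0.067). In all, 4 of 10 U-box genes were higher in local leaves, against 4.77% of all probe sets, and none was lower, with a median difference of 0.17.

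AP2/ERF transcription factors held the largest difference among the genes named here. AT1G19210 was at 9.96 and 10.33 in local, 5.52 and 4.61 in systemic and 4.56 and 4.49 in control leaves, which was 33.9-fold between the 2 leaves of wounded plants (5.08 ± 0.26, adjusted p = 7.6e-05). Its systemic difference from control was 0.54 (adjusted p = 0.28), with an interval of -0.07 to 1.15. AT1G77640 was at 10.35 and 10.31 in local, 7.31 and 6.74 in systemic and 6.86 and 6.12 in control leaves. AT1G22810, AT1G64380 and AT5G52020 were higher in local leaves by 2.14, 1.48 and 1.31, and none of the 3 was called between systemic and control leaves. The call of each of these 5 held with any 1 array left out. In all, 10 of 26 AP2/ERF genes were higher in local than in systemic leaves and none was lower, or 38.5% of the list against 4.77% of all probe sets higher, with a median of 0.09 (7 of 26 higher without local replicate 1, and 1 lower without either control array).

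ORA47 (AT1G74930), the AP2/ERF factor that activates jasmonate synthesis genes, behaved otherwise. It was at 12.21 and 12.35 in local, 10.76 and 9.42 in systemic and 5.77 and 5.45 in control leaves. The systemic leaf was thus 22.3-fold above control, and the wounded leaf a further 4.57-fold above the systemic leaf (2.19 ± 0.36, adjusted p = 0.01). The last call was lost without local replicate 1 (adjusted p = 0.069). AT1G33760, of the same family, was at 9.98 and 10.24 in local leaves, and at 7.62 and 5.63 on the systemic arrays, which lay far apart. Its systemic rise over control (adjusted p = 0.038) was lost without either control or either local array (up to 0.14). AT4G32800 was graded with closer replicates, at 9.07 and 8.96 in local, 7.60 and 7.24 in systemic and 6.22 and 5.90 in control leaves.

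Several other genes of the wounded leaf had levels near the floor elsewhere. AT5G38700 was at 8.28 and 7.95 in local, 4.17 and 3.87 in systemic and 3.89 and 3.99 in control leaves. Its systemic and control levels lay below the lower quartile, and local minus systemic was 4.09 (adjusted p = 1.3e-05). AT3G27210 was 3.67 higher in local than in systemic leaves, AT2G17660 3.36 higher and AT1G73510 3.04 higher, all with adjusted p of at most 0.0002. AT5G65300 and AT3G19240 were measured well above the lower quartile on all arrays. AT5G65300 was at 8.59 and 8.60 in local, 5.49 and 5.15 in systemic and 5.08 and 5.13 in control leaves. AT3G19240 was at 10.34 and 10.63 in local, 8.09 and 8.06 in systemic and 7.83 and 7.95 in control leaves, so its systemic arrays sat close to control while the local ones stood apart. The roles of these genes are not annotated in the sources used here. None of the 6 lost its call with any 1 array left out.

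GLR2.7 (AT2G29120), a glutamate receptor-like cation channel gene, was the sole called member among 8 of its family, or 12.5% against 9.7% of all probe sets. It was at 7.10 and 7.14 in local, 5.93 and 6.00 in systemic and 6.20 and 6.07 in control leaves (local minus systemic 1.16 ± 0.09, adjusted p = 0.00062). GLR3.3 and GLR3.6, whose channels carry the wound signal between leaves, differed by 0.34 (adjusted p = 0.12) and -0.12 (adjusted p = 0.59).

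**Figure D3:**
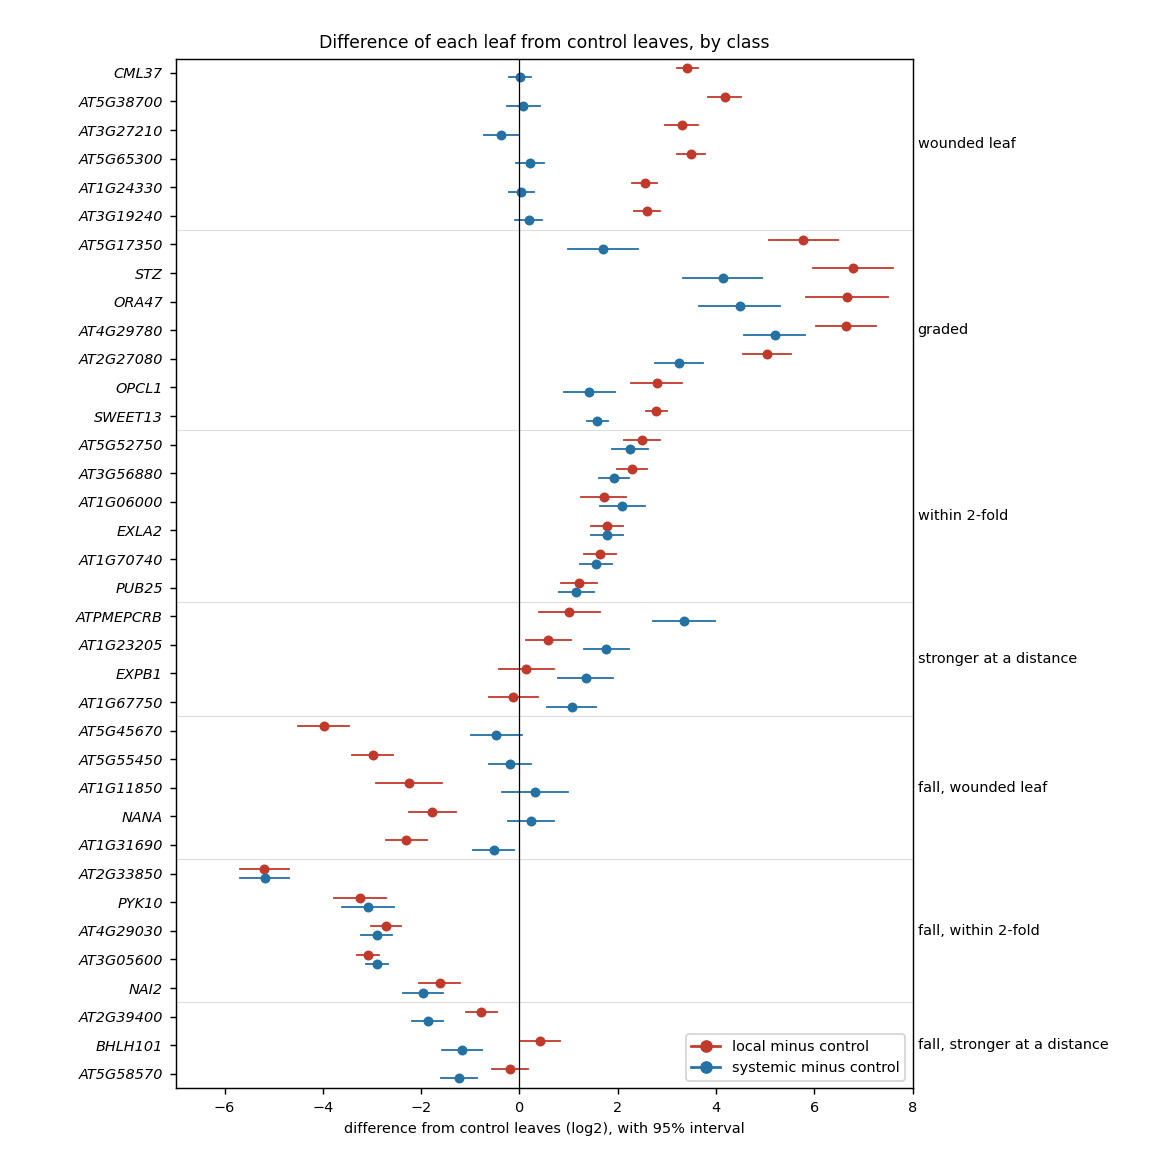
Difference of local leaves (red) and systemic leaves (blue) from control leaves (log2, x axis) for genes grouped by class; points are the fitted differences and lines their 95% intervals. In the uppermost group the systemic intervals include 0, as for CML37 at 0.01, except that of AT3G27210 (-0.72 to -0.03). In the groups within 2-fold the 2 intervals of a gene lie over each other, as for EXLA2 at 1.78 and 1.79.

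Graded genes were raised in distant leaves and higher still in the wounded leaf. The median probe set of the 124 was 3.61 above control in local leaves and 1.80 above it in systemic leaves. STZ (AT1G27730), a zinc finger repressor of stress responses, was at 11.97 and 12.11 in local, 10.03 and 8.74 in systemic and 5.42 and 5.09 in control leaves. It was 6.30-fold higher in the wounded than in the distant leaf (2.66 ± 0.35, adjusted p = 0.0042 by limma). Of 18 C2H2 zinc finger genes STZ was the sole called member, or 5.56% against 9.7% of all probe sets. AT4G29780 was at 12.27 and 12.43 in local, 11.39 and 10.41 in systemic and 5.65 and 5.76 in control leaves. Both leaves thus stood far above control, and the step between them was 1.45 (adjusted p = 0.016, lost without local replicate 1 or 2 at adjusted p = 0.087 and 0.07). AT5G17350 had a larger step of 4.08, being at 10.83 and 10.90 in local, 7.35 and 6.21 in systemic and 5.21 and 4.96 in control leaves, and its systemic rise over control was lost without control replicate 2 (adjusted p = 0.065).

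At the neighbouring loci AT4G27652, AT4G27654 and AT4G27657 the 2 systemic arrays stood far apart. AT4G27654 was at 11.21 and 10.97 in local leaves, at 8.20 and 6.50 on the 2 systemic arrays and at 4.58 and 4.64 in control leaves. The systemic arrays of the other two stood equally far apart, at 9.13 and 7.36 for AT4G27652 and at 8.48 and 6.69 for AT4G27657. Local minus systemic was 3.74 for both AT4G27652 and AT4G27654 (adjusted p = 0.0031 and 0.0027). For AT4G27657 it was 3.27 (adjusted p = 0.0062, or 0.056 without local replicate 1). The systemic difference of AT4G27652 from control (adjusted p = 0.029) lost its call without either control or either local array (adjusted p up to 0.098), and that of AT4G27657 without control replicate 2 (adjusted p = 0.051).

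Some transporter genes followed the graded pattern, among them members of the 2 families given here. AT5G52050, a multidrug and toxin extrusion (MATE) carrier, was at 10.90 and 10.98 in local, 9.11 and 7.64 in systemic and 5.57 and 5.16 in control leaves. Its step between the leaves was 2.56 (adjusted p = 0.0077, or 0.059 without local replicate 1). AT1G61890, also a MATE gene, was at 10.90 and 11.05 in local, 9.74 and 9.38 in systemic and 7.76 and 7.87 in control leaves, with close replicates (1.41, adjusted p = 0.0011). The MATE genes AT3G26590 and AT5G52450 were 1.16 and 0.98 higher in local than in systemic leaves. Their systemic minus control differences, 0.11 and 0.02, were not called. Neither call between the leaves held without local replicate 1 or systemic replicate 2. Of 31 MATE probe sets 6 were higher and 1 lower, which is 22.6% against 9.7% of all probe sets. Without local replicate 1 there were 2 higher and none lower, when 1.57% of all probe sets were higher. SWEET13 (AT5G50800), a sucrose exporter, was at 8.44 and 8.33 in local, 7.15 and 7.23 in systemic and 5.57 and 5.63 in control leaves. It was the sole member called among 16 SWEET probe sets, or 6.25% against 9.7% of all probe sets (1.20 ± 0.09, adjusted p = 0.00053).

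Of 3 measured genes of jasmonate synthesis and conversion, 2 were raised in both leaves and further in the wounded one. That is 66.7% of the list against 4.77% of all probe sets higher in local than in systemic leaves. The list held OPCL1, JMT and DGL alone, so it does not speak for the other steps of the pathway. OPCL1 (AT1G20510), which activates jasmonate precursors with coenzyme A, was at 9.87 and 9.88 in local, 8.81 and 8.20 in systemic and 6.81 and 7.35 in control leaves. The difference between the leaves was 1.37 (adjusted p = 0.0096, or 0.073 without local replicate 1). JMT (AT1G19640), which methylates jasmonic acid, was at 6.42 on both local arrays, 5.37 and 5.52 in systemic and 4.70 and 4.96 in control leaves (local minus systemic 0.98, adjusted p = 0.0025). Its systemic call against control was lost without control replicate 1 or either systemic array (adjusted p up to 0.088). DGL, a lipase gene of the pathway, differed by 0.09 (interval -0.16 to 0.33).

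Of 7 measured defence output genes of the hormone, none was called between the 2 leaves at 10 min by limma, against 9.7% of all probe sets. With 7 genes, a share below that of all probe sets cannot be told. The differences of these genes ran from -0.23 for the thionin gene THI2.2 to 0.09 for the defensin gene PDF1.2b. PDF1.2 was at 5.07 and 5.29 in local, 5.34 and 5.14 in systemic and 5.14 and 5.34 in control leaves, so the 3 groups overlapped. THI2.1, LCR66 and LCR67 were mostly under the lower quartile.

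WRKY53 and WRKY22 are transcription factors of immune and senescence responses. WRKY22 (AT4G01250) was at 8.91 and 9.52 in local, 8.20 and 7.89 in systemic and 6.48 and 5.94 in control leaves. Its local minus systemic difference of 1.17 passed (adjusted p = 0.021), but the adjusted p was 0.084 without local replicate 2, 0.051 without systemic replicate 1 and 0.13 without systemic replicate 2. WRKY53 (AT4G23810) was at 8.29 and 8.59 in local, 7.70 and 7.81 in systemic and 5.66 and 5.02 in control leaves, and its step of 0.68 did not pass (adjusted p = 0.079). The other 5 measured WRKY genes lay between -0.23 and -0.01.

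In 94 probe sets the distant leaf was raised to within 2-fold of the wounded leaf, with a median local minus systemic difference of 0.30. Their median was 1.51 above control in local and 1.26 above control in systemic leaves. EXLA2 (AT4G38400), an expansin-like wall protein, was at 8.30 and 8.27 in local, 8.45 and 8.12 in systemic and 6.36 and 6.65 in control leaves. The difference between the 2 leaves was -0.00 with an interval of -0.33 to 0.32. AT5G52750, a heavy-metal-associated domain protein, was at 8.39 and 8.34 in local, 8.35 and 7.85 in systemic and 5.80 and 5.92 in control leaves, again with local and systemic arrays overlapping (0.26, interval -0.10 to 0.63). AT1G70740, a protein kinase gene, differed by 0.07 between the leaves (interval -0.26 to 0.40) and was 1.63 above control in local and 1.56 above it in systemic leaves. AT3G56880, which encodes a VQ-motif protein, was 2.28 above control in local and 1.92 above it in systemic leaves, with a step of 0.36 (adjusted p = 0.14).

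Some genes of this set were a little apart between the leaves, though inside 2-fold. The glucosinolate transporter gene GTR1 (AT3G47960) was at 10.97 and 11.07 in local, 10.68 and 10.35 in systemic and 8.89 and 8.92 in control leaves. Its step of 0.51 (adjusted p = 0.04) was lost when any array but systemic replicate 1 was left out (adjusted p from 0.051 without either control array to 0.21). AT5G19240 differed by 0.46 (adjusted p = 0.042), a call lost without any 1 of the 4 arrays (up to 0.23). RALFL33 and RALFL22, which encode RALF peptides that signal through receptor kinases at the wall, were 0.65 and 0.46 higher in local leaves (adjusted p = 0.01 and 0.026) and 1.01 and 1.16 above control in systemic leaves. The step of RALFL33 was lost without local replicate 1 or systemic replicate 2 (adjusted p = 0.075 each), and that of RALFL22 without any 1 of the 4 local and systemic arrays (up to 0.15). Their relative RALFL34 went the other way, at 10.13 and 10.63 in local, 11.14 and 11.24 in systemic and 11.07 and 11.27 in control leaves (-0.81, adjusted p = 0.022). That call was lost without local replicate 1 or either systemic array (up to 0.13).

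Among genes of flavonoid synthesis, CHIL and AT1G06000 had their higher means in the distant leaf. UGT78D2, a glycosyltransferase gene described below, was 0.52 higher in the wounded leaf (adjusted p = 0.013 by limma). The pathway was not counted as a list. CHIL (AT5G05270), a chalcone isomerase-like protein that promotes flavonoid production, was at 9.25 and 9.64 in local, 10.01 and 10.17 in systemic and 8.03 and 8.15 in control leaves. It was 0.64 lower in local than in systemic leaves (adjusted p = 0.029), but the adjusted p was 0.071 without systemic replicate 1 and 0.17 without either local replicate 1 or systemic replicate 2. AT1G06000, a glycosyltransferase gene of flavonol glycosides, was 1.72 above control in local and 2.09 above it in systemic leaves, and the step of -0.37 was not called (adjusted p = 0.32).

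The 4 genes with a name among the rises stronger at a distance all belong to families of the cell wall. The class held 5 probe sets, and 55 with a class bound of 1.5-fold, so its members depend on the bound. The share of wall genes among all probe sets was not counted. Pectin methylesterases strip methyl groups from pectin, which lets it stiffen with calcium or be cut by pectate lyases, and their inhibitors and the expansins also adjust the wall. ATPMEPCRB (AT4G02330), a pectin methylesterase, was at 6.29 and 7.21 on the local arrays, 9.18 and 8.98 on the systemic arrays and 5.93 and 5.54 on the control arrays. The local level was 5.02-fold below the systemic one (-2.33 ± 0.27, adjusted p = 0.0025), and the call held with any 1 array left out. Its local difference from control, 1.02, was called (adjusted p = 0.03), but not without control replicate 2 or local replicate 2 (up to 0.14).

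AT1G23205, a gene of the invertase and pectin methylesterase inhibitor family, was at 6.66 and 7.32 in local, 8.07 and 8.27 in systemic and 6.49 and 6.32 in control leaves. EXPB1 (AT2G20750), a beta-expansin, was at 8.09 and 8.99 in local, 9.72 and 9.78 in systemic and 8.40 on both control arrays. AT1G67750, a pectate lyase, was at 6.94 and 7.72 in local, 8.49 and 8.54 in systemic and 7.39 and 7.52 in control leaves. In all 3 the systemic arrays were close together and above the other 4, while local replicate 1 lay well below local replicate 2. Local minus systemic was -1.18, -1.21 and -1.18 (adjusted p = 0.011, 0.021 and 0.015). Without systemic replicate 2 these were not past the threshold (adjusted p = 0.078, 0.12 and 0.092), nor were EXPB1 and AT1G67750 without systemic replicate 1 (adjusted p = 0.079 and 0.061). The systemic rise of EXPB1 and of AT1G67750 over control was also lost without any 1 control or systemic array (up to 0.076 and 0.11).

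XTH16 (AT3G23730) and LHCB4.3 (AT2G40100) stood nearby. XTH16, a xyloglucan endotransglucosylase, was at 8.38 and 8.50 in local, 8.95 and 9.32 in systemic and 8.45 and 8.25 in control leaves (-0.69, adjusted p = 0.021). That call was lost without either local array or systemic replicate 2 (up to 0.15), and its systemic rise over control without control replicate 2 or systemic replicate 2 (up to 0.06). LHCB4.3, a light-harvesting protein of photosystem II, was at 8.15 and 7.75 in local, 9.17 and 8.76 in systemic and 8.05 and 7.97 in control leaves (-1.01, adjusted p = 0.011, or 0.052 without systemic replicate 1). Its systemic rise over control was lost without control replicate 2 or systemic replicate 1 (up to 0.085). It was the sole called member among 8 nuclear photosystem genes, or 12.5% against 9.7% of all probe sets, and LHCB4.1 and LHCB4.2 differed by -0.03 and -0.09.

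Within the xyloglucan endotransglucosylase family, which cuts and rejoins the hemicellulose of the wall, XTH18 led in the other direction. XTH18 (AT4G30280) was at 8.72 and 8.79 in local, 6.59 and 5.13 in systemic and 4.49 and 4.55 in control leaves, and was 7.42-fold higher in the wounded leaf (2.89 ± 0.38, adjusted p = 0.0043). XTH33 was at 8.57 and 7.54 in local and 6.77 and 6.39 in systemic leaves, a difference of 1.47 that was lost without systemic replicate 2 (adjusted p = 0.02 and 0.13). XTH32, picked after its values were seen, was at 10.50 and 10.48 in local, 10.56 and 10.57 in systemic and 9.72 and 9.90 in control leaves. Of the 10 genes, 3 were higher and 1 was lower in local leaves, or 40% called against 9.7% of all probe sets. The third higher one, EXGT-A3 (adjusted p = 0.018), was not called without any 1 of the 4 local and systemic arrays (up to 0.13). Among 19 expansins and expansin-like genes 2 were higher, EXLA1 and EXLA3, and 3 were lower, EXPA8, EXPB1 and EXPB3. That is 26.3% called against 9.7% of all probe sets. EXLA1 was not called without local replicate 1 or systemic replicate 2 (adjusted p up to 0.15), nor EXPA8 without local replicate 1 or either systemic array (up to 0.087). EXPB3 was at 6.40 and 6.69 in local, 7.44 and 7.72 in systemic and 7.12 and 7.18 in control leaves (-1.03, adjusted p = 0.0042).

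**Figure D4:**
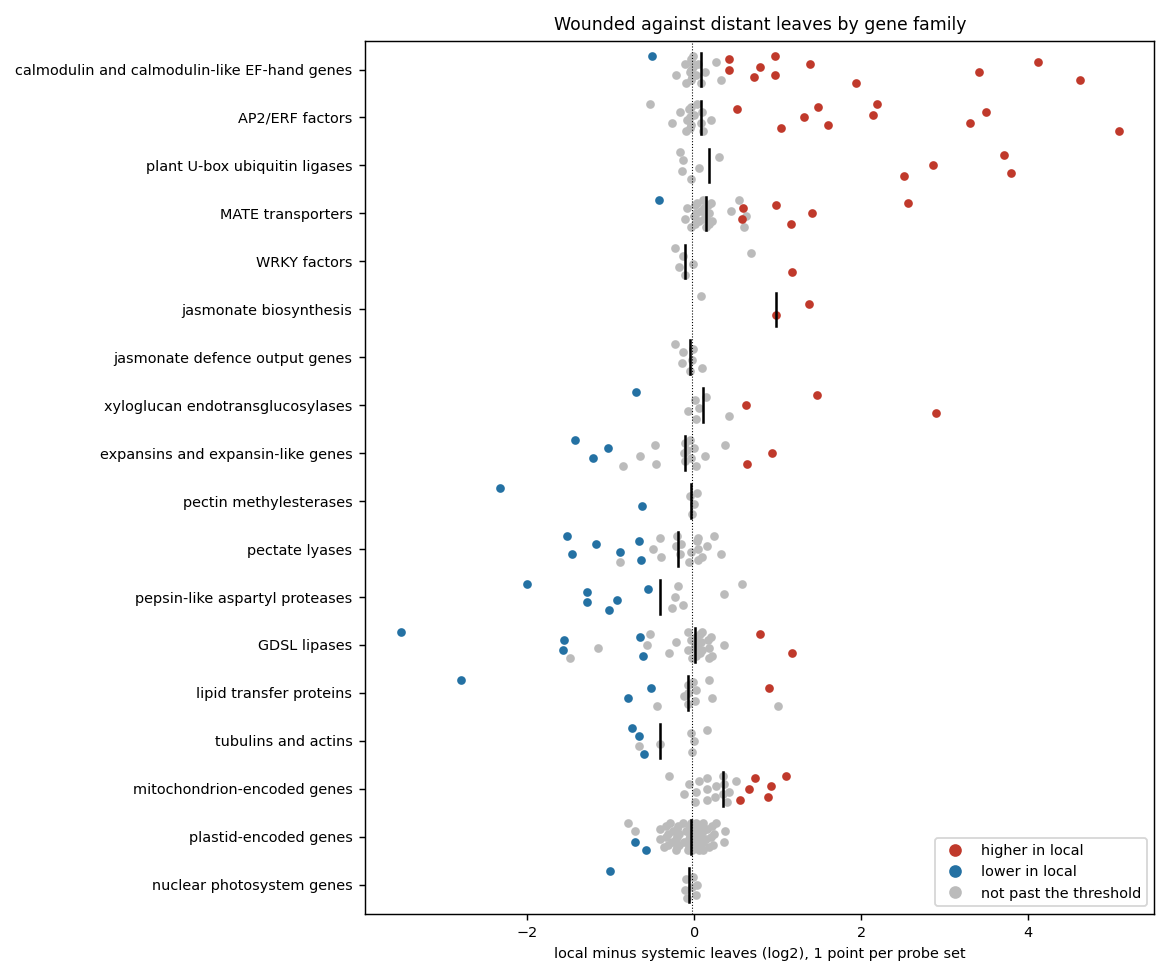
Local minus systemic difference (log2, x axis) of each probe set in 18 gene lists (rows); red points were called higher and blue points lower in local leaves, grey points were not called, bars are list medians and the dotted line is the median of all probe sets, -0.03. U-box ligases hold 4 red points beside 6 grey ones, whereas pectate lyases and pepsin-like aspartyl proteases hold 6 blue points each and no red one.

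Of the genes named here, AT4G29020, AT5G45670 and AT5G55450 had the largest negative differences. AT4G29020 was at 6.04 and 6.97 in local, 11.06 and 11.55 in systemic and 11.88 and 12.05 in control leaves. The local level was 27.9-fold below the systemic one (-4.80 ± 0.28, adjusted p = 0.00015). AT5G45670, a GDSL-type lipase, was at 4.02 and 4.15 in local, 7.19 and 8.003 in systemic and 8.01 and 8.13 in control leaves. Its local level lay below the lower quartile (-3.51 ± 0.23, adjusted p = 0.00023). AT5G55450, a lipid transfer protein, was at 5.97 and 6.09 in local, 8.70 and 8.95 in systemic and 8.74 and 9.30 in control leaves (-2.79 ± 0.18, adjusted p = 0.00023). In all 3 the systemic difference from control was not called, and their calls between the leaves held with any 1 array left out.

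GDSL lipases and lipid transfer proteins were mixed as families. AT4G18970 and AT4G28780 were lower in the wounded leaf, with differences of -1.58 and -1.56 (adjusted p = 0.0038 and 0.0047), and AT5G55050 and AT3G48460 were higher by 1.17 and 0.79. Of 32 GDSL genes 5 were lower and 2 higher, or 21.9% called against 9.7% of all probe sets, with a median of 0.01. Of 15 lipid transfer genes 3 were lower and 1 was higher (26.7% called), and AT1G48750, the higher one, differed by 0.89 (adjusted p = 0.0034).

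Pepsin-like aspartyl proteases were lower in the wounded leaf in 6 of 12 genes and higher in none (5 lower and 1 higher after cyclic loess or without either control array). That is 50% of the list against 4.93% of all probe sets lower, and the list median was -0.41. NANA (AT3G12700) was at 5.01 and 5.62 in local, 7.15 and 7.48 in systemic and 6.96 and 7.21 in control leaves (-2.01 ± 0.21, adjusted p = 0.0015). AT3G54400 was at 8.98 and 9.41 in local, 10.34 and 10.62 in systemic and 9.97 and 9.94 in control leaves. AT1G09750 was at 10.28 and 10.52 in local, 11.27 and 11.58 in systemic and 11.68 and 11.67 in control leaves. These 3 kept their calls with any 1 array left out, and 3 members of the list were lower without local replicate 1 or systemic replicate 2. AT5G37540 and AT3G59080, other members, were raised against control in both leaves, by 1.97 and 2.08 in local and 1.61 and 1.65 in systemic leaves.

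Pectate lyases, which cut demethylated pectin, were lower in 6 of 24 probe sets, or 25% against 4.93% of all probe sets lower, and higher in none, with a median of -0.19. AT3G07010 was at 5.92 and 6.87 in local, 7.94 and 7.91 in systemic and 7.85 and 8.02 in control leaves (-1.53, adjusted p = 0.011, or 0.053 without systemic replicate 1 and 0.065 without systemic replicate 2). AT3G53190 was at 6.04 and 6.46 in local, 7.60 and 7.84 in systemic and 8.72 and 8.13 in control leaves (-1.47, adjusted p = 0.0058, or 0.053 without local replicate 1). Without systemic replicate 2 a single pectate lyase was lower, when 1.18% of all probe sets were, and 3 were lower without local replicate 1 or without systemic replicate 1, and after cyclic loess 5 were lower and 1 was higher. Tubulins and actins were lower in 3 of 9 genes, or 33.3% against 4.93% of all probe sets: TUB1 by a difference of -0.75, TUA6 by -0.66 and ACT11 by -0.60. None of these was called without local replicate 1 (adjusted p = 0.056, 0.13 and 0.11), nor TUB1 without local replicate 2 (0.051), nor TUA6 and ACT11 without systemic replicate 2 (0.1 and 0.088). TUB5, picked after its values were seen, was at 9.50 and 9.57 in local, 9.49 and 9.58 in systemic and 10.16 on both control arrays. The histone genes of the list had a median of -0.38, and none of 8 was called.

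Further genes of the wounded leaf that fell belong to other functions. AT1G31690, a copper amine oxidase, was at 5.10 and 5.44 in local, 6.88 and 7.22 in systemic and 7.38 and 7.77 in control leaves (-1.78, adjusted p = 0.0014). AT1G11850 was at 5.33 and 6.38 in local, 8.28 and 8.55 in systemic and 8.04 and 8.16 in control leaves (-2.56, adjusted p = 0.0022). AT5G51560, a leucine-rich repeat receptor kinase, was at 7.04 and 7.78 in local, 8.83 and 8.85 in systemic and 8.75 and 8.81 in control leaves (-1.43, adjusted p = 0.0058). Their systemic arrays lay near control, and their calls held without any 1 array.

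In 66 probe sets both leaves lay at least 2-fold below control and within 2-fold of each other. Their median difference from control was -1.50 in local and -1.34 in systemic leaves. AT2G33850 was at 3.94 and 3.82 in local, 3.71 and 4.07 in systemic and 8.74 and 9.41 in control leaves. Both leaves of wounded plants thus lay below the lower quartile, too dim for a remaining difference to show. PYK10 (AT3G09260) is a beta-glucosidase of the endoplasmic reticulum bodies known mainly from roots and seedlings. It was at 3.95 and 4.19 in local and 4.23 and 4.25 in systemic leaves, all below the lower quartile, against 6.91 and 7.72 in control leaves. NAI2 (AT3G15950), which is needed to form these bodies, was at 5.10 and 5.13 in local, 4.61 and 4.95 in systemic and 6.48 and 7.00 in control leaves, above the lower quartile, with a local minus systemic interval of -0.07 to 0.75. AT4G29030, neighbour of AT4G29020 by its locus number, was at 5.07 and 5.28 in local, 4.89 and 5.06 in systemic and 8.03 and 7.74 in control leaves, so the 2 neighbours differed in the distant leaf, where AT4G29020 was not called against control.

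Graded falls were few. AT3G15630 was at 6.97 and 7.29 in local, 8.92 and 8.73 in systemic and 10.02 and 10.46 in control leaves (local minus systemic -1.70, adjusted p = 0.0014). AT1G78170 was at 4.75 and 5.05 in local, 6.61 and 7.09 in systemic and 8.05 and 8.34 in control leaves (-1.95, adjusted p = 0.001). Each of these steps held with any 1 array left out.

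A fall stronger in the distant leaf was seen for 17 probe sets, 4 of them with a named gene. BHLH101 (AT5G04150), a transcription factor of the iron deficiency response, was at 7.01 and 6.76 in local, 5.01 and 5.56 in systemic and 6.44 and 6.47 in control leaves. The wounded leaf was 3.04-fold above the distant one (1.60 ± 0.18, adjusted p = 0.002), and its difference from control, 0.43, was not called (adjusted p = 0.13). AT2G39400 was at 8.71 and 8.35 in local, 7.34 and 7.53 in systemic and 9.24 and 9.36 in control leaves (1.09, adjusted p = 0.0035). AT5G58570 differed by 1.04 between the leaves (adjusted p = 0.008, or 0.073 without local replicate 1). AT3G62550 differed by 1.52 (adjusted p = 0.041), a call lost without any 1 of the 4 arrays (up to 0.25).

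Some probe sets of mitochondrion-encoded genes were called higher in the wounded leaf, and none of plastid-encoded genes was. Among 23 probe sets of mitochondrion-encoded genes, 6 were higher in local than in systemic leaves and none lower, or 26.1% against 4.77% of all probe sets higher, and the median was 0.34. The 6 were those of nad4L, nad9, nad1 and nad5, subunits of respiratory complex I, and cox1 and cox2, subunits of cytochrome oxidase. The nad4L probe set was at 6.59 and 6.51 in local, 5.42 and 5.50 in systemic and 5.58 and 5.74 in control leaves (1.09 ± 0.10, adjusted p = 0.00098). For nad9 the levels were 7.11 and 7.07 in local, 6.15 and 6.19 in systemic and 6.29 and 6.23 in control leaves (0.92 ± 0.09, adjusted p = 0.0012). For these 2 the local arrays stood above both other groups, and the calls held with any 1 array left out. The 1 called of 7 nad1 probe sets was at 5.67 and 5.86 in local, 5.12 and 5.11 in systemic and 5.71 and 5.49 in control leaves, so that the local and control arrays overlapped and the systemic arrays were the low ones (systemic minus control -0.48, adjusted p = 0.039, or up to 0.16 with 1 array left out). For nad5 the local difference from control, 0.28, was not called (adjusted p = 0.061). The calls between the leaves were lost for cox1 without local replicate 1 (adjusted p = 0.051), for cox2 without either local array or systemic replicate 2 (up to 0.2), for nad1 without local replicate 2 or either systemic array (up to 0.075) and for nad5 without local replicate 1 or either systemic array (up to 0.064). Of the list, 2 probe sets were lower in systemic than in control leaves, while 3 of the list were called without local replicate 1 and 3 without systemic replicate 2. Several probe sets of the list target the same gene and are not independent.

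Plastid-encoded genes did not share this. Of 69 probe sets none was higher and 2 were lower, or 2.9% called against 9.7% of all probe sets. The lower ones, rpl36 and rpl14 of the plastid ribosome, had differences of -0.71 and -0.58 (adjusted p = 0.0061 and 0.044 by limma). Both calls were lost without local replicate 1 (adjusted p = 0.054 and 0.2), and that of rpl14 without any array but systemic replicate 2. The median of the list was -0.04, and 0.04 after cyclic loess, so its sign is not settled. The ubiquitin 3' minus 5' difference given above also set the local arrays, at 0.408 and 0.405, apart from the systemic arrays, at 0.605 and 0.602, and its part in the mitochondrial result was not tested.

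Of the UDP-glycosyltransferases 1 of 51 was called, or 1.96% against 9.7% of all probe sets. The cytochrome P450 genes, with 1 higher and 1 lower of 23 (8.7%), and the autophagy genes, with 1 of 11 higher (9.09%), were near the share of all probe sets. The higher glycosyltransferase, UGT78D2, which glucosylates flavonols, differed by 0.52 (adjusted p = 0.013), a call lost without any 1 of the 4 local and systemic arrays (up to 0.088). Of 23 bZIP factors 1 was higher, BZIP60, the factor of the unfolded protein response, and 2 were lower, BZIP61 and AT2G40620 (13% called). Neither lower call held without local replicate 1 or systemic replicate 2 (adjusted p up to 0.14 and 0.25). BZIP60 was at 10.24 and 9.99 in local, 9.67 and 9.41 in systemic and 8.75 and 8.79 in control leaves, a step of 0.57 (adjusted p = 0.029) that was lost without local replicate 1 or systemic replicate 2 (adjusted p = 0.21 and 0.18). No cellulose synthase-like, exocyst or SAUR gene of the lists was called, among 8, 13 and 3 measured.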

How the data were processed

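Leaf RNA (6 µg per array, per the labels) was measured on 6 Affymetrix arrays. The deposited table holds a log2 level for each probe set on each array. The submitters' processing notes name RMA and the Affymetrix Expression Console for it, with no version. RMA sets all arrays to the same distribution, so a change of all transcripts one way would not be seen, and it compresses differences of dim probe sets. The table has no detection calls. Levels below an array's lower quartile (about 4.4) were read as near background.

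Of 22810 probe sets, 64 array controls were left out and 22746 tested. Names come from the platform annotation, updated through the TAIR10.1 gene table: 13513 probe sets had 1 gene (13436 matched by Entrez number, 48 by locus, 29 by the platform's name), 503 several and 8730 none listed, and only those with 1 gene were named. Family roles of genes known by locus alone are general knowledge.

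Group means over all 6 arrays were fitted and compared with limma 3.58.1 (R 4.3.3; 3 residual degrees of freedom, 4.85 prior) in two-sided tests with Benjamini-Hochberg adjustment over all probe sets, a threshold of 0.05 and moderated standard errors and 95% intervals. The fit was tested on simulated data. Comparisons, families and classes were chosen with earlier results of these data known, and the 37 family lists were trimmed and extended by locus after matches were seen. Named genes were the 25 largest higher and lower differences, 10 (falls 8) per class, up to 5 and all called by 2-fold per list (all members of lists of at most 8), and genes called in opposite directions against control. Alternatives were a replicate block, median centring, cyclic loess, trended and robust variances, a filter on mean level at the median or at the 25th percentile, only the 4 arrays, only probe sets with 1 gene, a 1.5-fold class bound and each array left out. Deviations of same-numbered arrays correlated at 0.20 (local with systemic), 0.14 (local with control) and 0.02 (systemic with control), and the numbers were not treated as pairs.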

Additional observations from a re-analysis of the deposited data

Results flagged for a closer look

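Among the probe sets compared, 14 were called in opposite directions against control in the 2 leaves of wounded plants, 5 of them with a named gene, and the difference between the leaves was itself called for each of the 5. Local and systemic differences share the control arrays. APS4, an ATP sulfurylase of sulfate assimilation, was at 9.77 and 9.49 in local, 8.36 and 8.39 in systemic and 8.85 and 8.86 in control leaves, a local minus systemic difference of 1.26 (adjusted p = 0.00094 by limma). AT4G09760 was at 9.56 and 9.31 in local, 8.41 and 7.98 in systemic and 8.97 and 8.76 in control leaves, a difference of 1.24 (adjusted p = 0.004). AT1G21000 was at 10.14 and 10.07 in local, 8.65 and 8.56 in systemic and 9.25 and 9.05 in control leaves, a difference of 1.4996 (adjusted p = 0.00029).

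The other two were highest in the distant leaf. AT1G52770 was at 4.20 and 4.34 in local, 5.37 and 5.17 in systemic and 4.79 and 4.73 in control leaves, a difference of -1.0004 (adjusted p = 0.0019), with its local levels below the lower quartile. AT1G11330, a lectin-domain receptor kinase, was at 6.37 and 6.79 in local, 7.98 and 7.76 in systemic and 7.30 and 7.23 in control leaves, a difference of -1.29 (adjusted p = 0.0023). The call between the leaves held for all 5 with any 1 array left out. Against control, the systemic call of each was lost without at least 1 array (adjusted p up to 0.18 for APS4, 0.18 for AT4G09760, 0.092 for AT1G21000, 0.16 for AT1G52770 and 0.23 for AT1G11330). The local call against control was also lost for AT4G09760 without either control or either local array (up to 0.21), and for AT1G52770 and AT1G11330 without control replicate 1 or local replicate 1 (up to 0.097 and 0.072). The opposite directions against control are thus less firm than the difference between the leaves.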

How the results depend on the processing

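Of the 271 named probe sets, the 145 called between the leaves kept their direction under each setting run, while 30 of the 126 not called changed sign under at least 1 setting, with differences of at most 0.42 in size as reported. Calls between the leaves were lost for 57 without local replicate 1, 25 without local replicate 2, 35 without systemic replicate 1 and 52 without systemic replicate 2. They were lost for 3 after median centring, 6 after cyclic loess, 4 with a trended variance, 10 with a robust variance and 4 in a fit of the local and systemic arrays alone. With each array left out in turn, probe sets higher in local leaves numbered 358 to 1175 and lower ones 200 to 1154, and at 2-fold 255 to 385 and 92 to 240. The classes ranged from 100 to 162 (rise of the wounded leaf), 71 to 122 (graded rise), 66 to 137 (rise as strong), 2 to 13 (rise stronger at a distance), 40 to 115 (fall of the wounded leaf), 8 to 17 (graded fall), 52 to 147 (fall as strong) and 9 to 25 (fall stronger at a distance). Against control, local leaves had 1437 to 2147 higher and 1386 to 2893 lower, and systemic leaves 537 to 935 higher and 250 to 732 lower. A filter at the median takes out the probe sets of lower mean level. It left 65 rises of the wounded leaf and 32 falls as strong. The graded rise then held 117, the rise as strong 88 and the fall of the wounded leaf 58. With only probe sets of 1 gene, 598 were higher and 639 lower (189 and 73 at 2-fold), and the same classes in the order above, without the rise stronger at a distance, held 65, 60, 50, 28, 4, 35 and 4. With a class bound of 1.5-fold the 8 classes held 218, 239, 200, 55, 207, 58, 148 and 55. A fit with the replicate number as a block gave 1243 higher and 1303 lower and removed 1 named call and added 10. The numbers share no stated source, and the deviations of same-numbered arrays correlated at 0.02 to 0.20. With 2 arrays a group, and with many levels near the lower quartile, small differences of dim genes cannot be seen.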
